A study of Sus scrofa with 9 samples.

Results

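AQP3, AQP11, ATP1B1 and FXYD5 are 4 genes of water and sodium transport, followed here in RNA-seq libraries of pig blastocysts. They were chosen by name: a locus of the deposited gene table belonged to the set when any of its names was one of these 4 symbols. That gave 8 loci of 88800 in the table. For 4 of the 8 loci, 1 for each gene, the transcript table listed 7 transcripts of 147461 with class code 0, j or c. Code 0 was carried by transcripts with Ensembl IDs, and code j marks an assembled transcript that shares a splice junction with a known one. The other 4 loci only overlapped a member and are described after the genes themselves.

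The blastocoel is the fluid cavity of the blastocyst, and it is enclosed by the trophectoderm, the outer epithelium that later forms the placenta. In mouse embryos the sodium pump (Na,K-ATPase), an alpha subunit that carries out transport with a beta subunit needed for its passage to the membrane, moves sodium across this epithelium toward the cavity. Water follows, partly through aquaporins, and small FXYD proteins associate with the pump and adjust its activity. INO80 is the catalytic subunit of a chromatin remodelling complex.

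The study is an RNA-seq experiment on pig blastocysts without injection or after siRNA injection, and its title concerns the INO80 remodeller and the trophectoderm barrier at the step between morula and blastocyst. The deposited tables have 9 library columns, 3 headed INO80 siRNA, 3 headed Sham-water and 3 headed Uninjected, and the groups below are these headings. The sample labels do not settle what 2 of these headings hold. The 3 samples titled Sham-water carry INO80-siRNA as their siRNA, so whether a water sham or INO80 siRNA was injected is not fixed by the labels. By label, the columns headed INO80 siRNA and those headed Sham-water both match these same 3 samples, so the 9 columns match 6 samples. The 3 samples labelled control siRNA match no column by name, and whether their libraries stand under one of these headings is not known. Strain is given only as porcine, and age, the number of embryos and the siRNA sequence are not stated in the labels. No source says that libraries of a group came from separate pools of embryos, so p-values measure only the spread between these libraries, which may be technical.

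All 9 libraries held the mRNA of a trophectoderm keratin, KRT8, at 631 to 1431 FPKM (an abundance scaled by transcript length and by the depth of the library) in INO80 siRNA, 1507 to 4315 FPKM in Sham-water and 1170 to 2467 FPKM in Uninjected libraries. The FPKM values rested on 4.25 to 5.57 gigabases of aligned sequence a library. Transcripts of class code 0, j or c took 50.3% to 71.6% of the signal in INO80 siRNA, 65.6% to 86.1% in Sham-water and 61.0% to 74.6% in Uninjected libraries. A locus with at least 1 such transcript is called below a locus with a known transcript. INO80 siRNA library 2 correlated less with its own group (mean Pearson r of 0.877 across loci) than with Sham-water (0.892) or Uninjected (0.918) libraries. It was not alone in this. Sham-water library 1 had 0.905 with its own group and 0.926 with Uninjected, and Uninjected library 3 had 0.899 with its own group and 0.902 with Sham-water libraries. Pairs of libraries had a mean r of 0.896 within groups and 0.889 between them. Each gene below is also given without INO80 siRNA library 2, a choice made after the values were seen. INO80, the targeted gene, measured 0.331, 1.37 and 2.18 FPKM in INO80 siRNA libraries, 1.72, 0.716 and 1.90 FPKM in Sham-water libraries and 0.737, 1.09 and 1.92 FPKM in Uninjected libraries. These ranges overlapped, so a lower INO80 level under the INO80 siRNA heading was not visible, and directions below belong to the headings.

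AQP3 was the most abundant of the 4 genes in every library, lowest under the INO80 siRNA heading and highest under the Sham-water heading. AQP11 was also lower in INO80 siRNA than in Sham-water libraries. ATP1B1 was low and scattered in every group, and FXYD5 was higher in INO80 siRNA than in Uninjected libraries. None of these differences passed an adjusted p of 0.05 in limma's test over all loci.

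AQP3 is an aquaglyceroporin, a channel that passes water and glycerol, found on the basolateral membrane of many epithelia. Its locus (MSTRG.11635, chromosome 10, plus strand, 37307556 to 37313382 in the coordinates of the deposited table) held 1 transcript, ENSSSCT00000012032, with 6 exons and 1805 bases. AQP3 measured 6.81, 47.5 and 9.82 FPKM in INO80 siRNA libraries 1, 2 and 3. It measured 111, 102 and 88.3 FPKM in Sham-water libraries and 47.7, 72.9 and 64.8 FPKM in Uninjected libraries. All 3 INO80 siRNA libraries lay below all Sham-water libraries, and library 2 lay far above the other INO80 siRNA libraries and just under the lowest Uninjected library. The means were 21.4 ± 22.7 FPKM in INO80 siRNA, 100.3 ± 11.3 FPKM in Sham-water and 61.8 ± 12.9 FPKM in Uninjected libraries (SD, n = 3 each). In bulk embryos, fewer cells that express a gene and less RNA of it per cell cannot be told apart.

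**Figure D1:**
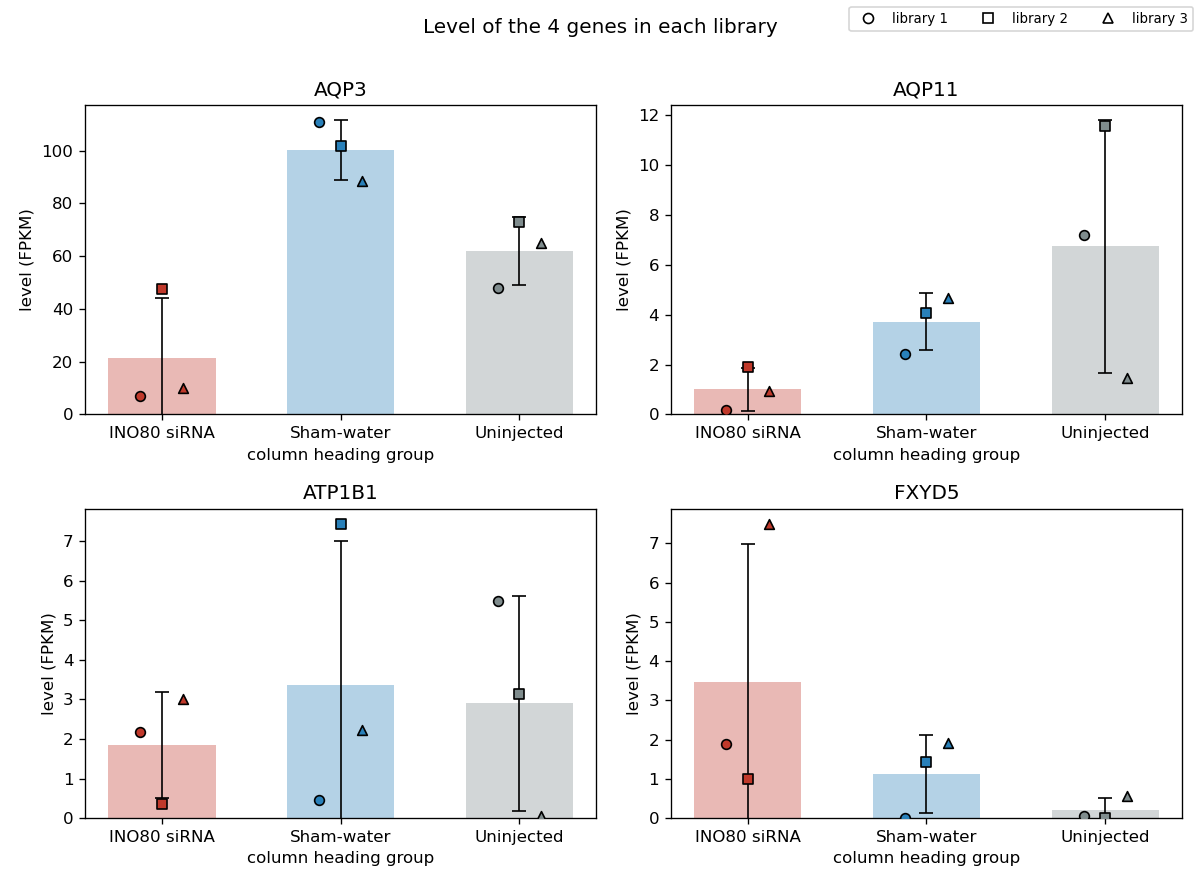
Level in FPKM of AQP3, AQP11, ATP1B1 and FXYD5 in each library, with 1 panel per gene, groups by column heading on the horizontal axis, bars for the mean and whiskers for ± SD (n = 3), which are cut off at 0. For AQP3 the INO80 siRNA libraries reach 47.5 FPKM, below every Sham-water library (88.3 FPKM or more), while for ATP1B1 the groups overlap throughout.

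On the log2(FPKM + 1) scale, AQP3 differed by -2.66 between INO80 siRNA and Sham-water libraries (SE 0.688, 95% interval -4.16 to -1.15). The difference between INO80 siRNA and Uninjected libraries was -1.95 (95% interval -3.46 to -0.45). The limma p was 0.00237 before and 0.459 after Benjamini-Hochberg adjustment in the first comparison, and 0.0153 before and 0.814 after it in the second. Sham-water libraries lay above Uninjected libraries by 0.70 (95% interval -0.80 to 2.21, adjusted p = 0.917 by limma), again with no overlap. The order was therefore Sham-water, Uninjected, INO80 siRNA from high to low, and no neighbours in it passed the test. Without INO80 siRNA library 2 the INO80 siRNA mean of AQP3 was 8.32 FPKM, against 100.3 FPKM in Sham-water and 61.8 FPKM in Uninjected libraries, and the log2 difference was -3.46 from Sham-water (adjusted p = 0.188 by limma) and -2.75 from Uninjected libraries. The sequence aligned to AQP3 came to 60.3, 444 and 75.3 kilobases in INO80 siRNA libraries, 1113, 866 and 789 kilobases in Sham-water libraries and 394, 605 and 564 kilobases in Uninjected libraries.

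AQP11 belongs to the less typical aquaporins, which sit largely in intracellular membranes such as the endoplasmic reticulum. Its locus (MSTRG.81723, chromosome 9, plus strand, 13216669 to 13228502) measured 0.186, 1.90 and 0.942 FPKM in INO80 siRNA libraries and 2.43, 4.05 and 4.68 FPKM in Sham-water libraries. Uninjected libraries gave 7.21, 11.6 and 1.44 FPKM, the widest spread of the 3 groups. INO80 siRNA and Sham-water libraries did not overlap, whereas Uninjected library 3 fell inside the INO80 siRNA range. Means were 1.01 ± 0.859 FPKM in INO80 siRNA, 3.72 ± 1.16 FPKM in Sham-water and 6.74 ± 5.08 FPKM in Uninjected libraries (SD, n = 3 each). The log2 difference was -1.29 for INO80 siRNA minus Sham-water (95% interval -2.78 to 0.19, adjusted p = 0.486 by limma). It was -1.75 for INO80 siRNA minus Uninjected (95% interval -3.23 to -0.26), with a limma p of 0.0252 before and 0.814 after adjustment. For Sham-water minus Uninjected it was -0.45 (95% interval -1.94 to 1.04, adjusted p = 0.954 by limma), a difference smaller than the spread between libraries, and 0.05 when Uninjected library 2 was left out. Without INO80 siRNA library 2 the INO80 siRNA mean of AQP11 was 0.564 FPKM, against 3.72 FPKM in Sham-water and 6.74 FPKM in Uninjected libraries, with log2 differences of -1.61 from Sham-water and -2.06 from Uninjected libraries.

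AQP11 had 2 transcripts with a known structure. ENSSSCT00000016234, with 3 exons and 1741 bases, carried all of the signal of these transcripts in the 6 injected-heading libraries. MSTRG.81723.2, an assembled form with 2 exons and 1302 bases, was listed at 0 in all 3 INO80 siRNA and all 3 Sham-water libraries. It measured 2.005, 0.273 and 0.0273 FPKM in Uninjected libraries 1, 2 and 3, which was 20.8%, 1.76% and 1.41% of the aligned sequence of the locus. Its highest group mean was under the filter of 1 FPKM, so it was not tested. In aligned sequence this short form had 11.9, 1.63 and 0.171 kilobases in the Uninjected libraries, so most of it came from 1 library.

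**Figure D2:**
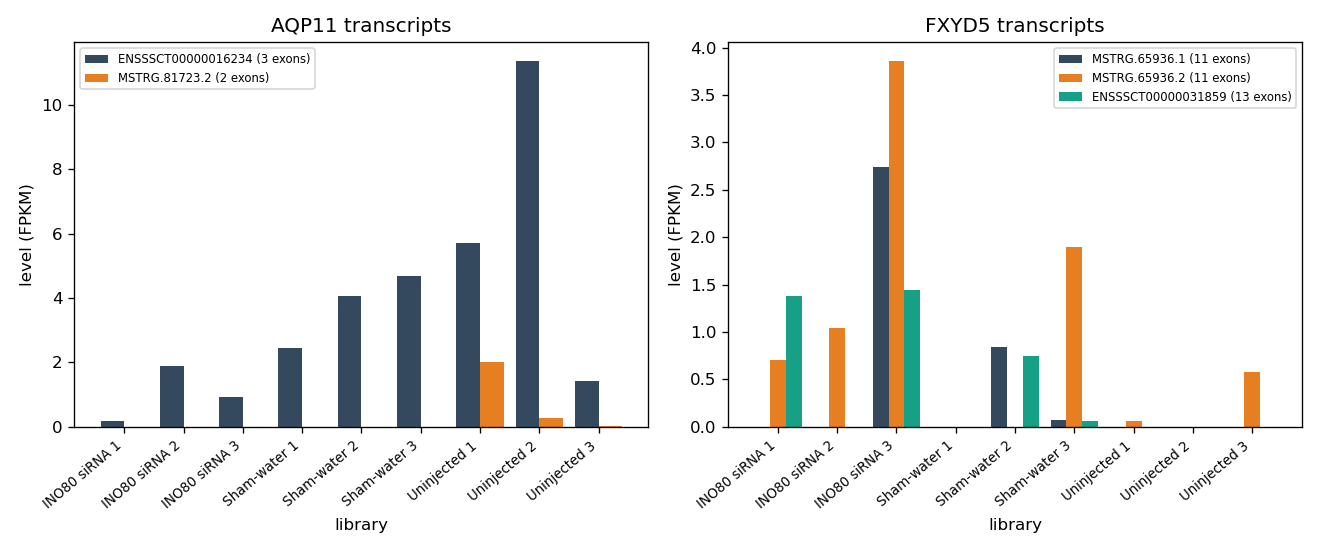
Level in FPKM of the 2 AQP11 transcripts (left) and the 3 FXYD5 transcripts (right) of known or related structure in each of the 9 libraries, 1 bar per transcript. The 2-exon AQP11 form is listed at 0 in all INO80 siRNA and Sham-water libraries, and the FXYD5 forms differ in their shares between INO80 siRNA libraries.

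ATP1B1 encodes the beta subunit of the sodium pump, a glycoprotein that brings the alpha subunit to the membrane and also takes part in contacts between neighbouring cells. Its locus (MSTRG.57716, chromosome 4, minus strand, 89529321 to 89550560) held 1 transcript, ENSSSCT00000006901, with 5 exons and 2408 bases. ATP1B1 measured 2.18, 0.367 and 3.004 FPKM in INO80 siRNA libraries, 0.451, 7.43 and 2.24 FPKM in Sham-water libraries and 5.48, 3.15 and 0.0646 FPKM in Uninjected libraries. Each group held at least 1 library under 1 FPKM, and all groups overlapped. Means were 1.85 ± 1.35 FPKM in INO80 siRNA, 3.37 ± 3.63 FPKM in Sham-water and 2.90 ± 2.72 FPKM in Uninjected libraries (SD, n = 3 each). The log2 difference was -0.40 for INO80 siRNA minus Sham-water (95% interval -2.19 to 1.40, adjusted p = 0.833 by limma). For INO80 siRNA minus Uninjected it was -0.24 (95% interval -2.04 to 1.56, adjusted p = 0.965 by limma), and for Sham-water minus Uninjected 0.16 (95% interval -1.64 to 1.95). These intervals admit a difference of more than 1 log2 unit in either direction, so the order of the groups for ATP1B1 is not resolved. Without INO80 siRNA library 2 the INO80 siRNA mean was 2.59 FPKM, against 3.37 FPKM in Sham-water and 2.90 FPKM in Uninjected libraries, and the log2 difference turned to 0.06 from Sham-water and 0.22 from Uninjected libraries. Leaving out Sham-water library 2 also turned its sign (0.26 for INO80 siRNA minus Sham-water and -0.50 for Sham-water minus Uninjected), as did leaving out Uninjected library 1 (0.30 for INO80 siRNA minus Uninjected) or Uninjected library 3 (-0.60 for Sham-water minus Uninjected). The lowest value rested on little sequence, with 0.750 kilobases aligned to the transcript in Uninjected library 3, against 84.5 kilobases in Sham-water library 2. The sequence behind these libraries was 4.82 and 4.72 gigabases.

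FXYD5, also called dysadherin, is a single-span membrane protein that associates with the sodium pump and is known to weaken cell adhesion in epithelial cells. Its locus (MSTRG.65936, chromosome 6, plus strand, 40131822 to 40145607) measured 1.88, 0.997 and 7.50 FPKM in INO80 siRNA libraries. Sham-water libraries gave 0, 1.44 and 1.92 FPKM, and Uninjected libraries 0.0620, 0 and 0.552 FPKM. Every INO80 siRNA library was above every Uninjected library, while INO80 siRNA and Sham-water libraries overlapped, as did Sham-water and Uninjected libraries. The log2 difference was 1.63 for INO80 siRNA minus Uninjected (SE 0.638, 95% interval 0.24 to 3.02), with a limma p of 0.0256 before and 0.814 after adjustment. For INO80 siRNA minus Sham-water it was 0.93 (95% interval -0.47 to 2.32, adjusted p = 0.534 by limma), and for Sham-water minus Uninjected 0.70 (95% interval -0.69 to 2.10, adjusted p = 0.915 by limma). Without INO80 siRNA library 3, the highest, the log2 difference of FXYD5 was 1.02 from Uninjected (95% interval -0.34 to 2.38, adjusted p = 0.992 by limma) and 0.32 from Sham-water libraries. Without INO80 siRNA library 2 the INO80 siRNA mean was 4.69 FPKM, against 1.12 FPKM in Sham-water and 0.205 FPKM in Uninjected libraries, with log2 differences of 1.36 from Sham-water and 2.07 from Uninjected libraries. Without Sham-water library 1, at 0, it was 0.45 for INO80 siRNA minus Sham-water and 1.18 for Sham-water minus Uninjected, and without Sham-water library 3 it was 0.40 for Sham-water minus Uninjected. The size of the fold of a gene this low depends on the pseudocount. A pseudocount of 0.1 in place of 1 gave 3.54 for INO80 siRNA minus Uninjected (95% interval 0.50 to 6.57, adjusted p = 0.874 by limma). It gave 1.91 for INO80 siRNA minus Sham-water (95% interval -1.13 to 4.94, adjusted p = 0.536 by limma).

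The FXYD5 signal was divided over 3 transcripts. ENSSSCT00000031859, the known form with 13 exons and 960 bases, measured 1.37, 0 and 1.45 FPKM in INO80 siRNA, 0, 0.746 and 0.0606 FPKM in Sham-water and 0 FPKM in all 3 Uninjected libraries. MSTRG.65936.2, an assembled form with 11 exons and 1051 bases, measured 0.710, 1.04 and 3.86 FPKM in INO80 siRNA, 0, 0 and 1.89 FPKM in Sham-water and 0.0650, 0 and 0.578 FPKM in Uninjected libraries. MSTRG.65936.1, also with 11 exons, reached 2.74 FPKM in INO80 siRNA library 3 and 0.843 FPKM in Sham-water library 2, and was under 0.1 FPKM in the other 7 libraries. INO80 siRNA library 3 was thus the highest library for all 3 forms, while in INO80 siRNA library 2 the known form was at 0 and MSTRG.65936.1 at 0.00236 FPKM. Of the 3, MSTRG.65936.2 alone passed the filter, with adjusted p-values of 0.635 for INO80 siRNA minus Sham-water and 0.800 for INO80 siRNA minus Uninjected by limma. The sequence behind the known form was 6.47, 0 and 5.90 kilobases in INO80 siRNA libraries and at most 3.38 kilobases in any other library.

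**Figure D3:**
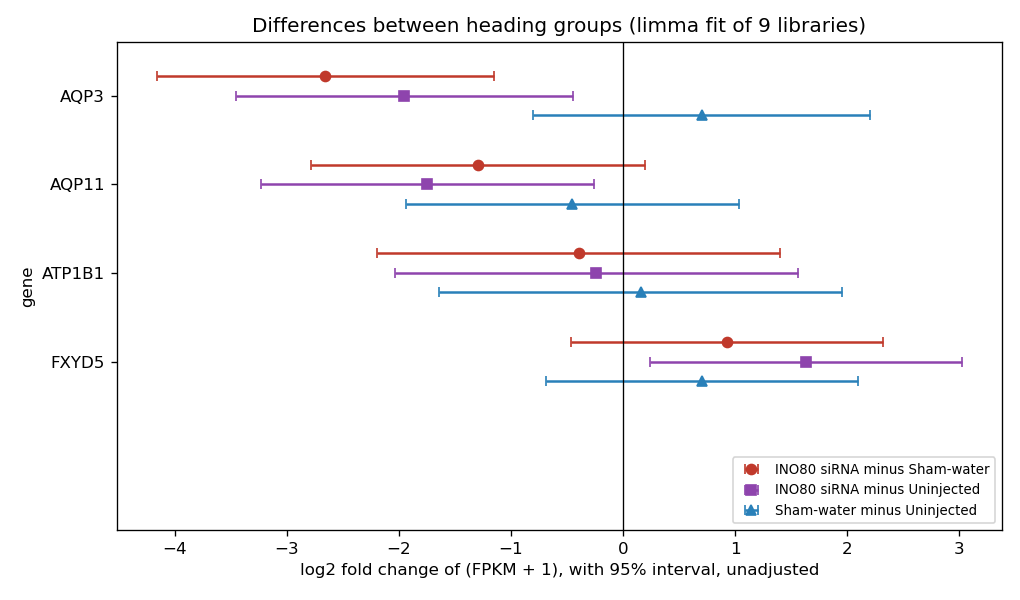
Difference between heading groups in log2(FPKM + 1), with its unadjusted 95% interval from limma over 9 libraries, for the 4 genes. AQP3 has intervals below 0 in both comparisons with INO80 siRNA, the interval of FXYD5 is above 0 only for INO80 siRNA minus Uninjected, and all intervals of ATP1B1 include 0.

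Over the whole table, calls at an adjusted p under 0.05 were rare. Of 8 loci named for the genes, 7 passed the filter (a group mean of 1 FPKM or more in any group), and 0 were called in any of the 3 comparisons by limma. In the background, 0.00149% of 67107 tested loci were called for INO80 siRNA minus Sham-water, 0.00149% for INO80 siRNA minus Uninjected and 0% for Sham-water minus Uninjected. At an unadjusted p under 0.05 limma gave 7124 loci for INO80 siRNA minus Sham-water, AQP3 among them. It gave 3574 for INO80 siRNA minus Uninjected, with AQP3, AQP11 and FXYD5 among them, and 2843 for Sham-water minus Uninjected, with none of the 4 genes. Of the 7 transcripts, 4 passed the filter and 0 were called, against 0.00448% of 111564 transcripts for INO80 siRNA minus Sham-water, 0.00538% for INO80 siRNA minus Uninjected and 0.000896% for Sham-water minus Uninjected. At an unadjusted p under 0.05 they were the AQP3 transcript in both comparisons with INO80 siRNA and ENSSSCT00000016234 of AQP11 in INO80 siRNA minus Uninjected. The 3 comparisons share libraries in pairs, so they are not independent of each other.

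Groups without overlap were common enough that the genes' counts have to be read against them. For INO80 siRNA minus Sham-water, AQP3 and AQP11 had all INO80 siRNA libraries below all Sham-water libraries, which held for 3.68% of all tested loci and for 18.6% of the 9311 tested loci with a known transcript. None of the 4 genes lay above without overlap, against 14.3% of all tested loci and 1.97% of those with a known transcript. For INO80 siRNA minus Uninjected, AQP3 was lower without overlap (background 2.78%, and 8.6% of loci with a known transcript) and FXYD5 higher (background 8.07%, and 1.75%). For Sham-water minus Uninjected, AQP3 was higher without overlap (background 2.35%, and 8.63%) and none of the 4 was lower (background 6.42%, and 2.55%). Among loci with a known transcript the median log2 difference was itself -0.34 for INO80 siRNA minus Sham-water and -0.20 for INO80 siRNA minus Uninjected, while over all loci it was 0.57 and 0.21.

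Other genes of water and ion transport were followed through a list of 46 genes that includes AQP3, AQP11, ATP1B1 and FXYD5. A locus with a known transcript was found for 35, and 15 passed the filter: 3 aquaporins, 1 beta subunit of the sodium pump, 4 FXYD genes, 1 subunit of the related proton-potassium pumps, 1 carrier of sodium, chloride or bicarbonate and 5 regulators. By limma 0 of the 15 passed an adjusted p of 0.05 in either direction in any comparison. At an unadjusted p under 0.05 there were 2 for INO80 siRNA minus Sham-water (AQP3 and SGK1), 5 for INO80 siRNA minus Uninjected (AQP3, AQP11, FXYD3, FXYD5 and ATP4B) and 0 for Sham-water minus Uninjected. These counts include members already described above, and the list was chosen with earlier results of these data known. Over all tested loci the share under that p was 10.6%, 5.33% and 4.24% in these comparisons, and over those with a known transcript 7.30%, 1.77% and 1.54%. When only loci with a known transcript were fitted, 1509, 532 and 448 of 9311 were under it. The log2 difference was negative for 12 and positive for 3 of the 15 for INO80 siRNA minus Sham-water, with a median of -0.68. It was negative for 11 and positive for 4 for INO80 siRNA minus Uninjected (median -0.24). For Sham-water minus Uninjected it was negative for 3 and positive for 12 (median 0.47). Over all loci with a known transcript the medians of these comparisons were -0.34, -0.20 and 0.16. After scaling the libraries to a common median of loci with a known transcript, 10 were negative and 5 positive for INO80 siRNA minus Sham-water (median -0.50), 9 negative and 6 positive for INO80 siRNA minus Uninjected (median -0.20), and 6 negative and 9 positive for Sham-water minus Uninjected (median 0.39). Quantile normalization gave 13 negative and 2 positive, 12 negative and 3 positive, and 1 negative and 14 positive in those 3 comparisons.

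**Figure D4:**
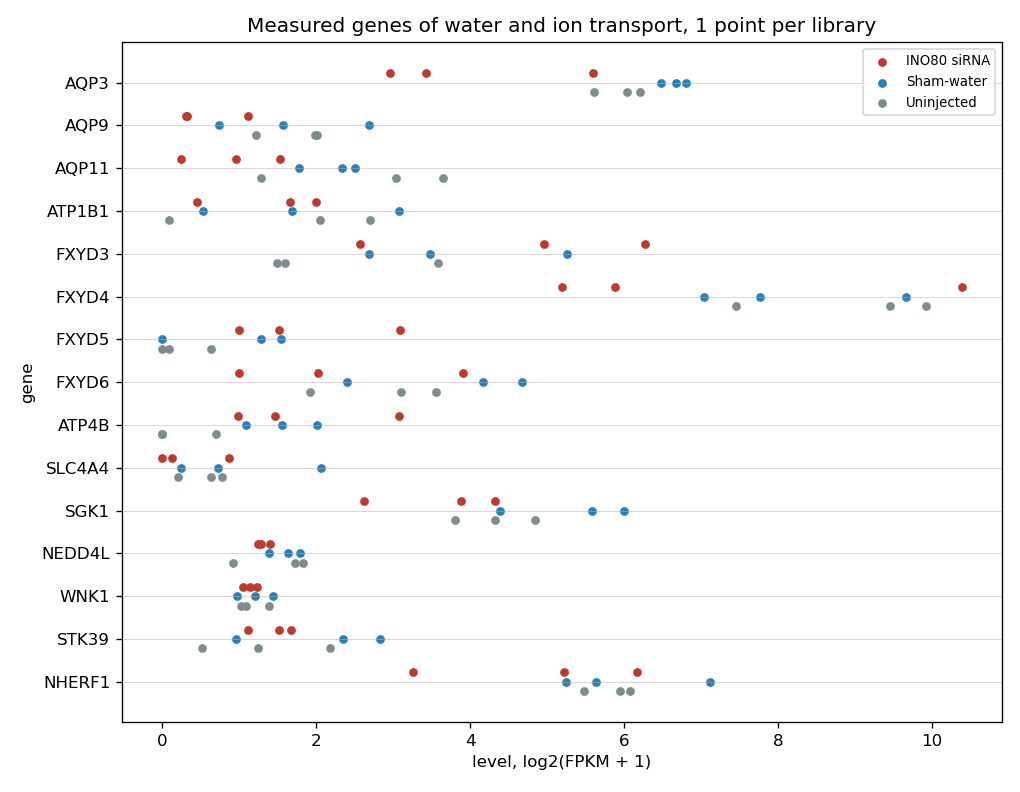
Level as log2(FPKM + 1) of the 15 measured genes of the water and ion transport list, 1 point per library and 1 row per gene, coloured by column heading. AQP3 shows all INO80 siRNA libraries to the left of both other groups, and FXYD4 spans its widest range within INO80 siRNA.

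Among the other regulators of the pump, FXYD4, known from the kidney collecting duct, was the most abundant and varied widely within each group. It measured 35.7, 1338 and 57.8 FPKM in INO80 siRNA libraries, 810, 131 and 217 FPKM in Sham-water libraries and 175, 702 and 968 FPKM in Uninjected libraries. INO80 siRNA library 2 was the highest of all 9 and the other INO80 siRNA libraries the lowest, so the group as a whole overlapped both others. FXYD3 measured 4.94, 76.4 and 30.3 FPKM in INO80 siRNA, 5.46, 10.2 and 37.4 FPKM in Sham-water and 2.02, 11.01 and 1.81 FPKM in Uninjected libraries. FXYD6 measured 0.997, 3.07 and 14.0 FPKM in INO80 siRNA, 4.31, 24.6 and 17.0 FPKM in Sham-water and 2.79, 10.8 and 7.63 FPKM in Uninjected libraries. The groups overlapped for FXYD3, FXYD4 and FXYD6 in all comparisons.

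A few other genes of the list separated a pair of groups without passing the adjusted test. AQP9, an aquaglyceroporin, measured 1.16, 0.247 and 0.249 FPKM in INO80 siRNA, 0.671, 1.97 and 5.48 FPKM in Sham-water and 1.33, 3.03 and 2.96 FPKM in Uninjected libraries, with INO80 siRNA below Uninjected throughout. SGK1, a kinase that stimulates epithelial sodium transport, measured 5.15, 13.8 and 19.0 FPKM in INO80 siRNA, 19.9, 47.2 and 63.2 FPKM in Sham-water and 27.7, 13.0 and 19.1 FPKM in Uninjected libraries, with INO80 siRNA below Sham-water throughout. ATP4B, the beta subunit of the gastric proton pump, measured 7.48, 0.978 and 1.77 FPKM in INO80 siRNA, 1.12, 1.94 and 3.03 FPKM in Sham-water and 0, 0 and 0.628 FPKM in Uninjected libraries. Both injected headings lay above Uninjected for ATP4B. INO80 siRNA was below Sham-water without overlap for 3.68% of all tested loci and 18.6% of those with a known transcript. It was below Uninjected for 2.78% and 8.6%, and above Uninjected for 8.07% and 1.75%. Sham-water was above Uninjected for 2.35% and 8.63%. Groups overlapped in all comparisons for the scaffold protein NHERF1 (8.57 to 137.5 FPKM over the 9 libraries), the bicarbonate carrier SLC4A4 and the regulators NEDD4L, WNK1 and STK39, which were all at 6.10 FPKM or less.

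Markers of cell types differed between libraries too. The summed FPKM of 7 of 7 listed trophectoderm markers ranged over 1306 to 5225 in INO80 siRNA, 3104 to 8325 in Sham-water and 2931 to 8554 in Uninjected libraries, and KRT8 and KRT18 made up most of it. The other 5 summed to 32.1 to 110.8 FPKM in INO80 siRNA, 46.0 to 107.9 FPKM in Sham-water and 47.9 to 141.0 FPKM in Uninjected libraries. Of the 7, KRT8, KRT18, GATA2, GATA3 and TEAD4 had lower means in INO80 siRNA than in Sham-water libraries. These were 15.5 and 29.4 FPKM for GATA2, 13.3 and 26.9 FPKM for GATA3 and 9.19 and 19.1 FPKM for TEAD4. TFAP2C and CDX2 went the other way. TFAP2C, a trophectoderm transcription factor, was higher in INO80 siRNA (15.98 to 29.2 FPKM) than in Sham-water libraries (3.995 to 12.8 FPKM) without overlap. This held for 14.3% of all tested loci and 1.97% of those with a known transcript. TFAP2C in INO80 siRNA lay within the range of Uninjected libraries (6.37 to 47.6 FPKM). CDX2 measured 0.0391 to 3.14 FPKM in INO80 siRNA, 0.306 to 1.61 FPKM in Sham-water and 0.0643 to 0.621 FPKM in Uninjected libraries. Epiblast markers (3 of 4 found) summed to 27.6 to 92.9 FPKM in INO80 siRNA, 72.9 to 153 FPKM in Sham-water and 82.9 to 122 FPKM in Uninjected libraries. POU5F1 made up most of these sums and overlapped between all groups. TDGF1 measured 4.29 to 11.5 FPKM in INO80 siRNA, 17.0 to 27.0 FPKM in Sham-water and 22.1 to 30.6 FPKM in Uninjected libraries. INO80 siRNA lay below Sham-water without overlap for 3.68% of all tested loci and 18.6% of those with a known transcript. It lay below Uninjected for 2.78% and 8.6%. Primitive endoderm markers (5 of 5) summed to 9.61 to 15.9 FPKM in INO80 siRNA, 12.2 to 27.1 FPKM in Sham-water and 14.1 to 23.4 FPKM in Uninjected libraries. Oocyte markers (7 of 7) ranged over 7.13 to 124.7 FPKM in INO80 siRNA, 6.76 to 50.4 FPKM in Sham-water and 4.49 to 14.9 FPKM in Uninjected libraries. UCHL1 alone gave 110.8 FPKM of the highest of these sums, in INO80 siRNA library 3, and the other 6 summed to 1.92 to 13.9 FPKM in INO80 siRNA, 3.71 to 17.2 FPKM in Sham-water and 1.97 to 9.15 FPKM in Uninjected libraries. Cumulus and granulosa markers (5 of 7) summed to 31.2 to 37.2 FPKM in INO80 siRNA, 46.1 to 167.7 FPKM in Sham-water and 58.2 to 97.5 FPKM in Uninjected libraries, and blood and immune markers (4 of 5) to at most 24.9 FPKM in any library. None of the markers found was at 0 in all 9 libraries. SOX2 was listed at 0 in all 3 INO80 siRNA libraries, in Sham-water libraries 1 and 3 and in Uninjected library 2. Its highest value was 1.36 FPKM, in Sham-water library 2. FOXA2 was listed at 0 in all but INO80 siRNA library 3. The part of the cell type markers in the results was not tested.

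Set against KRT8, a keratin of the same epithelium, the separation of AQP3 was smaller. This was done for KRT8 alone, which was itself lower in INO80 siRNA (631 to 1431 FPKM) than in Sham-water libraries (1507 to 4315 FPKM). KRT18 overlapped between these groups (634 to 3683 FPKM against 1551 to 3913 FPKM). AQP3 was not set against KRT18, so the overlap below need not hold for another keratin. Per 1000 FPKM of KRT8, AQP3 measured 7.90, 33.2 and 15.6 FPKM in INO80 siRNA, 25.7, 67.5 and 43.3 FPKM in Sham-water and 31.2, 62.4 and 26.3 FPKM in Uninjected libraries, so that the groups overlapped. AQP11 and ATP1B1 overlapped on this scale in all comparisons. FXYD5 remained above Uninjected in all INO80 siRNA libraries, with 2.18, 0.697 and 11.9 FPKM per 1000 FPKM of KRT8 in INO80 siRNA and 0.0405, 0 and 0.224 in Uninjected libraries. Mean KRT8 was lower in INO80 siRNA (975 FPKM) than in Uninjected libraries (1722 FPKM), with overlap. Division by KRT8 therefore tends to widen this separation of FXYD5 and is no separate check of it.

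The other 4 loci that carry the name of a member overlapped it without its splice structure. MSTRG.11633 is named for both NOL6 and AQP3, runs on the AQP3 strand of chromosome 10 at 37281341 to 37333406 and so spans the AQP3 locus. It measured 7.89, 8.39 and 39.8 FPKM in INO80 siRNA, 3.26, 7.76 and 2.99 FPKM in Sham-water and 5.21, 12.04 and 3.16 FPKM in Uninjected libraries. INO80 siRNA lay above Sham-water without overlap, opposite to AQP3 itself, with a log2 difference of 1.51 (adjusted p = 0.481 by limma). Its 2-exon transcript of 278 bases, MSTRG.11633.2, reached 72.6 FPKM in INO80 siRNA library 3 but only 85.7 kilobases of aligned sequence, against 75.3 kilobases for AQP3 in that library. Reads of MSTRG.11633 and of AQP3 share a strand and may have been divided between them by the assembler, so both values are uncertain where AQP3 is low.

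MSTRG.81718, named for PAK1 and AQP11, measured 4.52, 3.02 and 4.64 FPKM in INO80 siRNA, 0.774, 5.15 and 1.12 FPKM in Sham-water and 3.36, 5.61 and 4.56 FPKM in Uninjected libraries. MSTRG.81722, named for AQP11 and CLNS1A, measured 1.91, 4.65 and 5.66 FPKM in INO80 siRNA, 1.71, 3.05 and 0.773 FPKM in Sham-water and 3.66, 5.73 and 1.96 FPKM in Uninjected libraries. Groups overlapped for both. Both exceeded the AQP11 locus in every INO80 siRNA library and in Uninjected library 3, as did MSTRG.81718 in Sham-water library 2. Their transcripts named for AQP11 lie on its strand, and MSTRG.81722.1 had 12.2 kilobases in INO80 siRNA library 3, against 6.96 kilobases for ENSSSCT00000016234. Reads may have been divided between these loci and AQP11 by the assembler. The AQP11 values, and their lack of overlap between INO80 siRNA and Sham-water libraries, are uncertain to that extent. MSTRG.57714 lies antisense to ATP1B1, with its end at 89529650 on the plus strand inside the ATP1B1 locus, and stayed at 1.13 FPKM or less in all 9 libraries, below the filter. Whether counting used strand is not stated, so reads of ATP1B1 and of this antisense locus cannot be told apart where they overlap.

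Across the 9 libraries the loci whose log2(FPKM + 1) followed each gene most closely were ranked by Pearson correlation among 7516 loci with a known transcript and a recognised symbol. These are descriptions, since libraries of a group and their composition are shared by all loci. For AQP3 the nearest were S100A16 (r = 0.984), CYB561D1 (0.967) and GLRX3 (0.967). S100A16, a calcium-binding protein, measured 4.89, 22.5 and 6.82 FPKM in INO80 siRNA, 37.5, 27.8 and 23.3 FPKM in Sham-water and 19.97, 24.8 and 25.2 FPKM in Uninjected libraries, with INO80 siRNA library 2 again nearest to the other groups. Of the other members, AQP11 had an r of 0.681 with AQP3, ATP1B1 -0.0904 and FXYD5 -0.635.

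The nearest loci to AQP11 were ZNF383 (r = 0.929), GPAT4 (0.923) and ERLIN1 (0.923). ERLIN1, a protein of the endoplasmic reticulum membrane, measured 4.34, 5.28 and 4.91 FPKM in INO80 siRNA, 9.96, 8.90 and 12.8 FPKM in Sham-water and 11.97, 18.15 and 8.24 FPKM in Uninjected libraries. For ATP1B1 they were ZAP70 (0.991), EOGT (0.986) and CYR61 (0.939), and CYR61, a secreted matrix protein, was highest in Sham-water library 2 at 48.1 FPKM, where ATP1B1 was highest too. For FXYD5 they were PAGE3 (0.931), CEP162 (0.919) and EMB (0.918), and PAGE3 measured 2.64, 3.05 and 13.7 FPKM in INO80 siRNA, 0, 3.29 and 3.25 FPKM in Sham-water and 0.986, 0.908 and 0.397 FPKM in Uninjected libraries.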

How the data were processed

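RNA-seq of pig blastocysts was analysed from FPKM per locus and per transcript and from the coverage per base of each transcript, both as deposited by the authors. The authors worked with HISAT2, StringTie, fastp and edgeR, per the submitters' processing notes, which give no versions and name GRCh38.p10, a human build, although the IDs are pig Ensembl IDs. The pig build, the annotation and strandedness were not given in the sources used here. FPKM is not a count, so log2(FPKM + 1) of loci or transcripts whose mean reached 1 FPKM in any group was fitted over 9 libraries with limma 3.58.1 (R 4.3.3; mean trend and robust variances), with Benjamini-Hochberg adjustment over the whole table. The fit was tested on simulated data. Aligned kilobases are coverage times length, and the sequence behind a library is coverage over FPKM. Of 7176 Ensembl IDs used as names, 2230 matched a symbol. Named genes were the 4 members, INO80, the measured genes of the transport list and the 3 nearest loci by correlation; KRT8 and other single genes of the marker lists were named after their values were seen. Part of the transport list is not reported here. Members and lists were chosen with earlier results of these data known. Alternatives covered pseudocount, filters, scaling, trend, samples and the replicate block. No sequence was printed, since none was used here.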

Additional observations from a re-analysis of the deposited data

How the results depend on the processing

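The values of AQP11, ATP1B1 and FXYD5 reached at most 11.6, 7.43 and 7.50 FPKM. With 3 libraries a group, depth and library spread may limit what could be called, which was not tested. Of 210 alternative fits of the 4 genes, 201 kept the direction and the side of the threshold and 9 turned the direction. ATP1B1 and FXYD5 fall below the minimum mean of 5 FPKM and have no value there. AQP3 for INO80 siRNA minus Sham-water ranged over -3.46 to -2.14, with adjusted p-values of 0.0809 to 0.831 by limma. AQP11 ranged over -2.13 to -0.96 and FXYD5 over 0.32 to 1.91 in that comparison, and FXYD5 over 1.02 to 3.54 for INO80 siRNA minus Uninjected. The direction turned for ATP1B1 in INO80 siRNA minus Uninjected with a pseudocount of 0.1 (0.05) and for AQP11 in Sham-water minus Uninjected with quantile normalization (0.10). Leaving out 1 library gave -1.01 to 0.26 for ATP1B1 in INO80 siRNA minus Sham-water, -1.0 to 0.30 in INO80 siRNA minus Uninjected and -0.60 to 0.77 in Sham-water minus Uninjected, and -1.14 to 0.05 for AQP11 in Sham-water minus Uninjected. The cause was not tested. Scaling to the median library moved the median of all loci to 0.84, 0.41 and -0.38 in the 3 comparisons, and quantile normalization to 0.03, -0.02 and 0.01; AQP3 stayed negative in both comparisons with INO80 siRNA. Called loci, 1 each for INO80 siRNA minus Sham-water and minus Uninjected, became 0 in both with a pseudocount of 0.1, a minimum of 5 FPKM, annotated loci only, 6 libraries or the replicate block. Leaving out 1 library gave 0 to 7, 0 to 1 and, for Sham-water minus Uninjected, 0 to 1. Called transcripts for INO80 siRNA minus Sham-water, 5, became 0 with no filter, scaling, 6 libraries or the replicate block and 1 with a minimum of 5 FPKM (0 to 28 leaving out 1 library). For INO80 siRNA minus Uninjected, 6 became 16 with a pseudocount of 0.1, 0 with no filter, 3 with a minimum of 5 FPKM, 13 without trend and 2 with the replicate block (0 to 30). For Sham-water minus Uninjected, 1 became 0 with no filter, scaling, 6 libraries or the replicate block (0 to 3). With the replicate block 0 of the 4 genes was called. Same-numbered libraries shared only a number: their deviations correlated by -0.23 to 0.19, and a library's own number gave the highest correlation in 2 of 9 checks.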
